A study of Mus musculus with 6 samples.

Results

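The 4 genes for transcription factors of the hair follicle bulge described here, Tbx1, Lhx2, Tcf7l1 and Nfatc1, were read in sorted mouse keratinocytes, the epithelial cells of the epidermis and hair follicle. They were picked by gene name, with their high ratios of CD34+ to CD34- cells in these same arrays already known, so those ratios are described below with no test. Each was read by 1 probe, so the 4 genes rest on 4 of 20868 probes, among 9491 genes that could be given a symbol. The probe of Tcf7l1 carries that gene's older name, Tcf3, and was assigned by its accession. It is not a probe for the E2A gene, whose mouse symbol is now Tcf3. The probe of Tbx1 was named from its description and the other probes by accession.

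The samples came from skin of mice aged 7 weeks. Keratinocytes freed with trypsin were stained for the alpha-6 integrin, which anchors basal cells to the basement membrane, and for CD34, a surface glycoprotein of bulge cells. Flow cytometry gave alpha6+CD34+ cells, called stem and progenitor cells in the labels, and alpha6+CD34- cells, called basal cells there. Both populations are positive for alpha-6 integrin and differ by the CD34 gate. No genotype or treatment is named for either population. The strain, the sex and the number of mice in a sample are not given in the sources used here. RNA of both populations of a replicate was hybridised to 1 array in 2 colours, Cy3 and Cy5, and again to another array with the dyes exchanged, which made 6 arrays for 3 biological replicates. The labels number replicates 1 and 2, and the remaining pair of arrays was taken as replicate 3 by elimination.

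The bulge is the niche of the outer root sheath where hair follicle stem cells rest between growth phases of the hair. Lhx2, a LIM-homeodomain factor, keeps mouse follicle stem cells in an undifferentiated state. Tcf7l1, of the Tcf/Lef family that binds beta-catenin, acts mainly as a repressor of Wnt target genes when beta-catenin is absent. Nfatc1 enters the nucleus after the calcium-dependent phosphatase calcineurin removes its phosphates, and in the mouse it holds bulge stem cells in quiescence. Tbx1, a T-box factor best known from development of the pharyngeal arches, is required for the self-renewal of mouse follicle stem cells over repeated rounds of hair growth.

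The genes of both sort markers were read first. The log2 ratio of CD34+ over CD34- cells was 5.84 ± 0.43 (SD, n = 3 replicates) for Cd34 and fell by 1.18 ± 0.27 for Itga6, the alpha-6 integrin gene, so Cd34 went with the labels on 6 of 6 arrays. Across all probes, limma with Benjamini-Hochberg adjustment called 12.6% of 19658 tested probes at an adjusted p under 0.05, with 5.6% higher and 6.97% lower in CD34+ cells. An unadjusted p under 0.05 was found for 31.3% of them. Of 9 bulge markers, 7 were higher, the sort marker Cd34 among them, and 1, the sort marker Itga6, was lower. Krt15, a bulge keratin, had 0.77 ± 0.52 with an adjusted p of 0.0909 in limma. Of other cells the sort could hold, 1 of 5 fibroblast markers was higher (Col1a2, a collagen chain, 1.02 ± 0.11). Among 6 melanocyte markers 2 were higher, Mitf at 0.99 ± 0.31 and Dct at 0.79 ± 0.29 (both lost with scaling between arrays, at adjusted p of 0.0542 and 0.0540), and 1 of 8 endothelial markers, Egfl7 at 0.44 ± 0.08. None of 5 leukocyte or 4 muscle markers passed in limma, with 2 and 0 of them at an unadjusted p under 0.05. The leukocyte markers tested were Cd3e, Cd3d, Cd3g, Cd2 and Cd8a, lymphocyte genes, so Langerhans and myeloid cells were not read. Summed processed signals, averaged over both arrays of a replicate, ran from 4367 to 7463 in CD34+ and 2800 to 4764 in CD34- cells for the fibroblast list, and from 5200 to 7740 and 3196 to 5736 for the melanocyte list. Those of the endothelial list ran from 5563 to 8217 and 4595 to 6758, and those of the leukocyte list from 11298 to 21288 and 8538 to 18119. Within a replicate, the sum of each of these 4 lists was higher in CD34+ cells in 3 of 3 replicates, and that of the muscle list in 1 of 3. The part of such cells in the values of the 4 factors was not tested. In bulk RNA, more cells that express a gene and more RNA of it per cell cannot be told apart.

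Tbx1 had the highest ratio of the 4. Its processed signal, in the scanner software's arbitrary units, ran from 22868 to 120010 in CD34+ cells with a median of 69152 over the 6 arrays. In CD34- cells it ran from 1148 to 3017 with a median of 2356. The lowest CD34+ array thus lay above the highest CD34- array. How many of all probes separate this way was not counted. For genes picked with high ratios known, such a lack of overlap, here and below, is description only. The log2 ratio was 4.76, 4.82 and 4.26 in replicates 1, 2 and 3, with a mean of 4.61 ± 0.31 (SD, n = 3), or 24.5-fold. It ranked 3 of all 19658 tested probes, and 3 in each replicate taken alone. In CD34- cells the probe was well above background on 6 of 6 arrays, a mark that 92.9% to 97.7% of all probes met there. Here and below, ratios and folds come from intensities corrected and normalised in limma, not from the processed signals printed beside them. The software's deposited ratios gave 28.1-fold for Tbx1, 15.2-fold for Lhx2, 4.44-fold for Tcf7l1 and 2.82-fold for Nfatc1.

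Lhx2 followed. Signals ran from 20428 to 52467 (median 37920) in CD34+ cells and from 1525 to 2929 (median 2331) in CD34- cells. Again the populations did not overlap. The log2 ratio was 3.78 in replicate 1, 3.88 in replicate 2 and 3.59 in replicate 3. The mean of 3.75 ± 0.15 corresponds to 13.4-fold, rank 7 among tested probes, and its SD was the smallest of the 4. The median SD over all tested probes was 0.0996.

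Tcf7l1 came next in the order. CD34+ signals ran from 1452 to 3024 (median 2548) and CD34- signals from 468.2 to 618.4 (median 476.0), with no overlap. The log2 ratio was 1.87 and 1.86 in replicates 1 and 2 and 1.17 in replicate 3, a mean of 1.63 ± 0.40 (n = 3) or 3.10-fold. Its SD was the widest of the 4. In replicate 3 the CD34+ signal averaged 1578, against 2705 and 2729 in replicates 1 and 2, and the CD34- signal averaged 543.7 against 473.6 and 518.9.

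Nfatc1 had the lowest ratio. Signals ran from 1266 to 3162 (median 1855) in CD34+ cells and from 554.8 to 997.7 (median 638.2) in CD34- cells. Between the populations there was again no overlap over the 6 arrays. Replicate 1 was the brightest in both populations, with averages of 3050 and 985.8. The log2 ratio was 1.34, 1.23 and 0.92 in replicates 1, 2 and 3, a mean of 1.16 ± 0.22 (n = 3) or 2.24-fold, rank 194 of the tested probes.

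**Figure D1:**
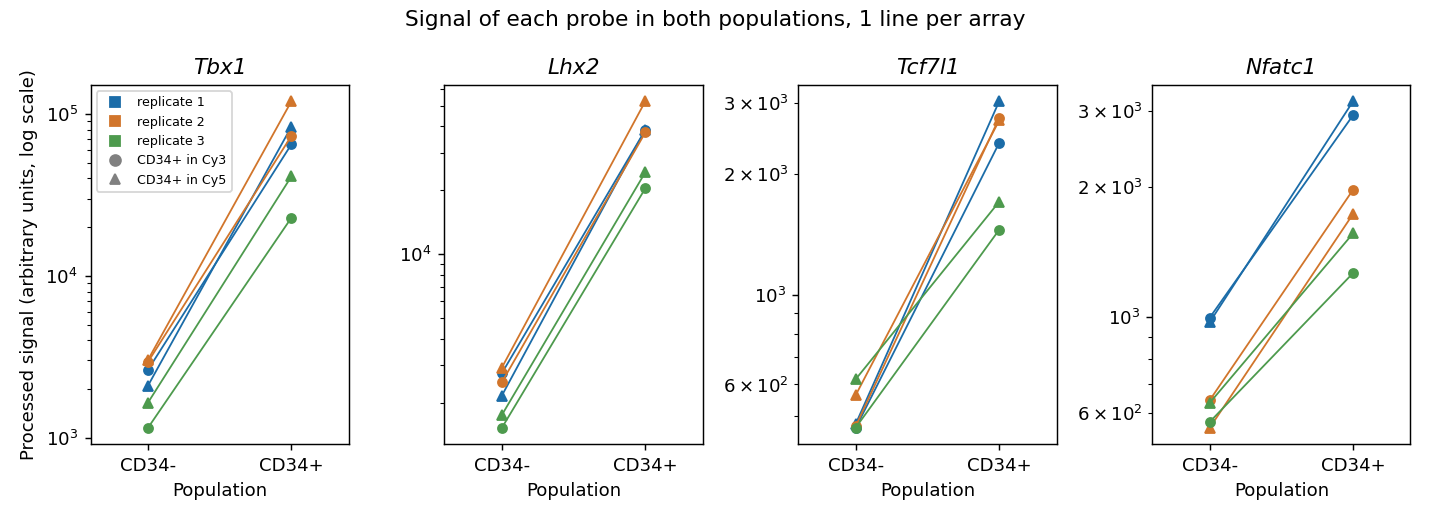
Processed signal (log axis, arbitrary units, each panel with its own scale) of the probes of Tbx1, Lhx2, Tcf7l1 and Nfatc1 in CD34- and CD34+ cells. Each line is 1 of 6 arrays, coloured by replicate, with circles where CD34+ cells were in Cy3 and triangles where they were in Cy5. Every line rises from CD34- to CD34+, and the CD34+ signals of Tbx1, 22868 to 120010, lie above its CD34- signals, 1148 to 3017.

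All 4 probes were well above background in both populations on 6 of 6 arrays, and none was saturated. That mark separates little, since 92.9% to 97.7% of all probes met it in CD34- cells, depending on the array. All 4 muscle markers tested also met it on every array in both populations. Whether the ratios, above all those of the dimmer Tcf7l1 and Nfatc1, are lower bounds was not tested. For each gene the ratio was higher than 0 on 6 of 6 arrays. How many of all probes do so was not counted, and the genes were picked with high ratios known, so this is description only. Both arrays of a replicate share its RNA, so the 6 arrays are not independent readings. Array values ran from 4.11 to 5.13 for Tbx1, from 3.58 to 3.99 for Lhx2, from 1.10 to 2.00 for Tcf7l1 and from 0.87 to 1.38 for Nfatc1. The order from Tbx1 through Lhx2 and Tcf7l1 to Nfatc1 held on 6 of 6 arrays and in 3 of 3 replicates. Tbx1 exceeded Lhx2 by 0.86 ± 0.17 on the log2 scale (SD of the difference, n = 3), and Lhx2 exceeded Tcf7l1 by 2.12 ± 0.26. Tcf7l1 exceeded Nfatc1 by 0.47 ± 0.20 within a replicate, although replicate 3 of Tcf7l1, at 1.17, lay below replicates 1 and 2 of Nfatc1. These are differences between ratios, not between levels of the genes.

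**Figure D2:**
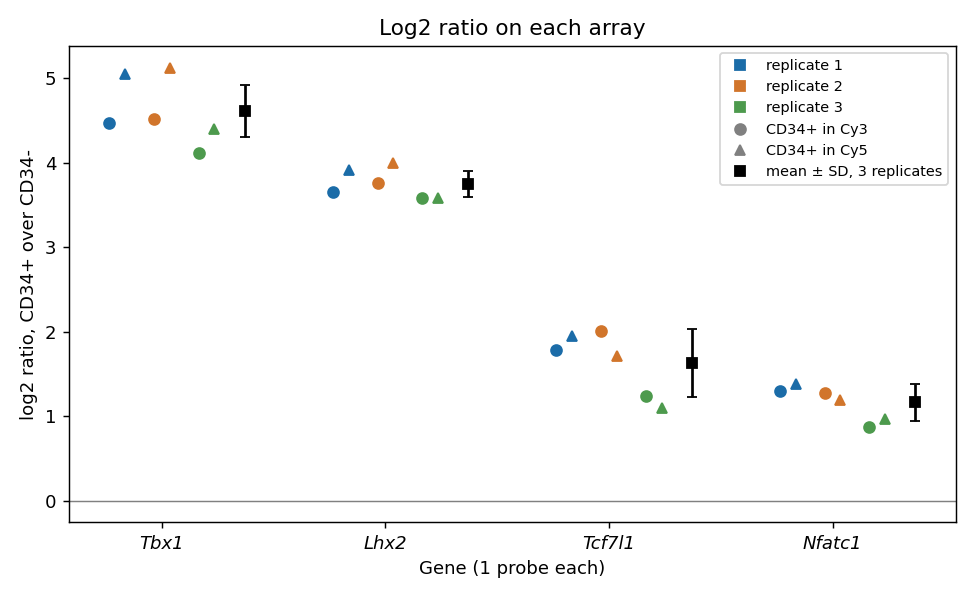
Log2 ratio of CD34+ over CD34- cells (vertical axis) for each gene on each of 6 arrays. Colours mark the replicate, circles CD34+ in Cy3 and triangles CD34+ in Cy5, and black squares with bars the mean ± SD over 3 replicates. Lhx2 lies at or above 3.58 on every array and Tcf7l1 at or below 2.00, and replicate 3 is the lowest of each gene.

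Replicate 3 gave the lowest ratio for all 4 genes. This was not particular to them: it was also lowest for Cd34, Dkk3, Sfrp1, Lgr5 and Nfib, though not for Krt15 or Fgf18. The 2 arrays of replicate 3 were read with an older version of the scanner software than the other 4, per the file headers, whereas the labels name 1 version for all. Replicates 1 and 2 together gave 4.79 for Tbx1, 3.83 for Lhx2, 1.86 for Tcf7l1 and 1.28 for Nfatc1, against 4.26, 3.59, 1.17 and 0.92 in replicate 3. Version and replicate cannot be told apart here, because replicate 3 alone has the older version.

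The dye orientation is a measure that did not choose the genes, and it was tested for their probes. With CD34+ cells in Cy5 the ratio of Tbx1 exceeded that with CD34+ cells in Cy3 by 0.57, 0.61 and 0.29 in replicates 1, 2 and 3. The dye effect, which is this gap divided by the 2 arrays, was 0.25 with an adjusted p of 0.0386 in limma, where 8.17% of all tested probes were called. The dye effect was 0.080 for Lhx2 (adjusted p = 0.171), -0.044 for Tcf7l1 (adjusted p = 0.550) and 0.014 for Nfatc1 (adjusted p = 0.743), and these did not pass. With median centring the effects of Lhx2 (0.32, adjusted p = 0.0020) and Nfatc1 (0.10, adjusted p = 0.0484) did pass, as did that of Lhx2 without replicate 3 (0.12, adjusted p = 0.0379). The call for Tbx1 was lost with the deposited ratios (adjusted p = 0.0763) and with an offset of 0 (adjusted p = 0.0794), and its sign turned after scaling between arrays, at -0.020 (adjusted p = 0.919). Over the alternatives its adjusted p ran from 0.00167 to 0.919. Without replicate 1 it was 0.148 and without replicate 2 it was 0.178. Averaging both orientations cancels such an effect in the mean, and Tbx1 taken from Cy5 arrays alone was 4.86 and from Cy3 arrays alone 4.37.

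The handling of the background moved the ratios but not their order. The authors' deposited ratios gave 4.81 ± 0.29 for Tbx1, 3.93 ± 0.14 for Lhx2, 2.15 ± 0.53 for Tcf7l1 and 1.50 ± 0.23 for Nfatc1. An offset of 0 in place of 50 gave 2.12 for Tcf7l1 and 1.47 for Nfatc1. With no background subtraction these genes gave 0.79 and 0.58, while Tbx1 gave 3.94 and Lhx2 3.12. The sign and the order of the 4 stayed the same wherever the ratio was recomputed, while the filters, the unpaired channels and the random replicate block leave these ratios as they are by construction.

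**Figure D3:**
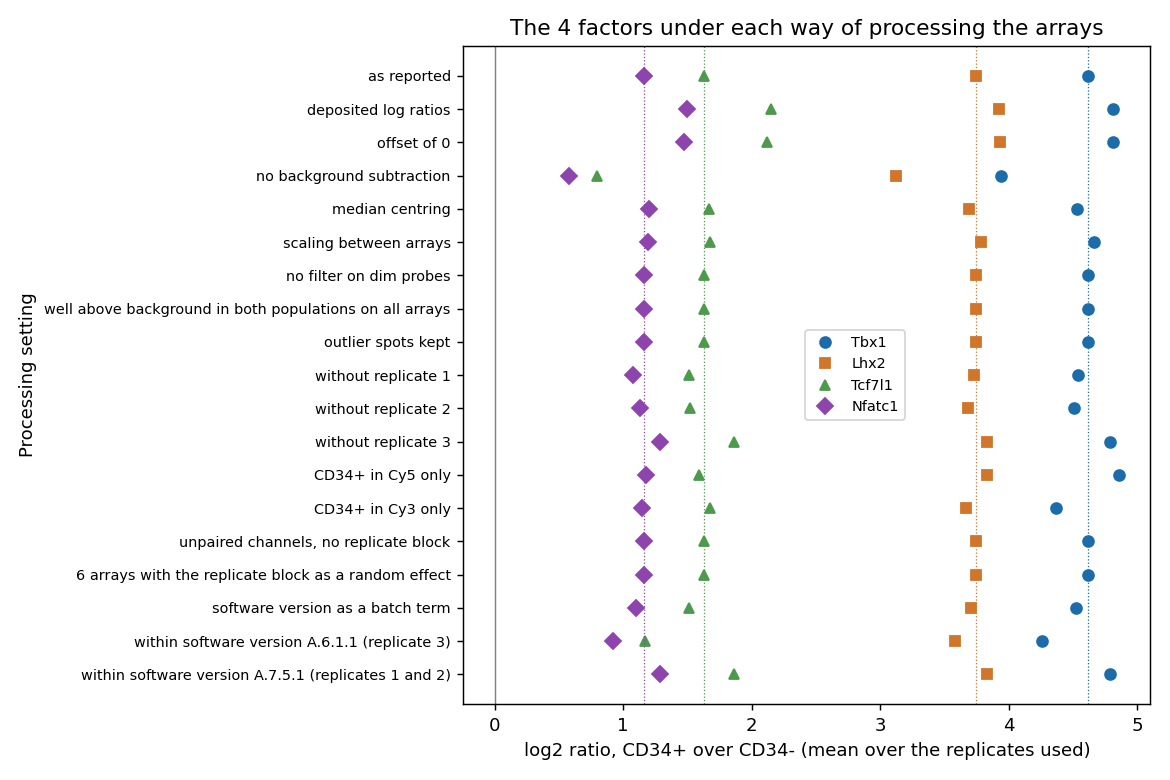
Log2 ratio of CD34+ over CD34- cells (horizontal axis) for Tbx1, Lhx2, Tcf7l1 and Nfatc1 under each way of processing the arrays (vertical axis), with dotted lines at the reported values. The ratio of Tcf7l1 ranges from 0.79 with no background subtraction to 2.15 with the deposited ratios, and all values lie above 0.

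The 4 genes were high together, so their promoters are printed for those with entries in the table used, from RefSeq on mouse build GRCm38.p6 (250 bases before to 50 bases after an annotated start, in the sense of the gene). RefSeq lists 2 starts each for Tbx1 and Lhx2 and 1 for Tcf7l1, and 1 start of each gene is shown: the outer start of Tbx1 (chr16:18590622-18590921, minus strand), the inner start of Lhx2 (chr2:38351058-38351357, plus strand) and the start of Tcf7l1 (chr6:72788996-72789295, minus strand). Capitals mark matches to the core CTTTG of Tcf/Lef sites or GGAAA of NFAT sites on either strand (CAAAG or TTTCC when read on the other), and no capital means no match.
Tbx1: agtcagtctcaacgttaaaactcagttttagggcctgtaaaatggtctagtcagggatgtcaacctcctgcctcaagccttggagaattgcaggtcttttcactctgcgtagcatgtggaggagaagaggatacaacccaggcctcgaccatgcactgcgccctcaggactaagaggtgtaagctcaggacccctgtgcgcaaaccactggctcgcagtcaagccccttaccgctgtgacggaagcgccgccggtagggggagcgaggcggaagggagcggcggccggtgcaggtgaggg
Lhx2: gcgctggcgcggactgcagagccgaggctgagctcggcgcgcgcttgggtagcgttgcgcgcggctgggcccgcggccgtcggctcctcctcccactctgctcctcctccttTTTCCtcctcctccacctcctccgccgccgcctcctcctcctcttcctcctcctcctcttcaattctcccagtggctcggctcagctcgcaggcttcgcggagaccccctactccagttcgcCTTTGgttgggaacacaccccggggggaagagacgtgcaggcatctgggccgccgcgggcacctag
Tcf7l1: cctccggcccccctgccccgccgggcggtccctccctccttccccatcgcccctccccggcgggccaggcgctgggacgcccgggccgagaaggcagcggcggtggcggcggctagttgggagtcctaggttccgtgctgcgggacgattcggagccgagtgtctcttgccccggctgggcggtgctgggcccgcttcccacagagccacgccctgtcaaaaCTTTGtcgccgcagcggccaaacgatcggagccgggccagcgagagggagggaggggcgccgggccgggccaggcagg

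CTTTG stood 28 bases before the start of Tcf7l1 and 16 bases before the inner start of Lhx2, both on the gene's own strand. The inner promoter of Lhx2 also held GGAAA on the other strand, and its outer promoter (chr2:38339031-38339330) held GGAAA and no CTTTG. Neither promoter of Tbx1 held a match. The matches printed do not overlap one another. Such short cores are common, with CTTTG in 53.9% and GGAAA in 61.3% of 32851 mouse promoters of the same length. The homeodomain site TAATTA, in 5.29% of promoters, and the T-box half-site GGTGTGA, in 3.98%, each searched on both strands, were in none of these promoters. The printed promoters of Tbx1, Lhx2 and Tcf7l1 were 58.3%, 69.3% and 75.3% G and C, against a median of 52.7% over all promoters.

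Relatives of each factor were then read from the fit over all probes, with the brightest probe standing for a gene. Few probes were left out as dim, and the signals of the relatives are not given. A ratio near 0 thus does not tell an unchanged gene from one that was not expressed. Of 11 other T-box genes tested, 0 were higher and 1 was lower in CD34+ cells, and their median log2 ratio was -0.018, against 0.0044 over all probes. At an unadjusted p under 0.05 there were 4, against 31.3% of all probes. The gene that fell was Tbx2, a T-box repressor, at -0.54, -1.10 and -1.04 in replicates 1, 2 and 3 and -0.89 ± 0.31 on average (limma, adjusted p = 0.0282). A dimmer Tbx2 probe gave -0.10 ± 0.08 (adjusted p = 0.265), so the probes of Tbx2 did not give the same call. Tbx6 (0.20 ± 0.05, adjusted p = 0.0675) had the highest ratio among the relatives of Tbx1.

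Of 14 LIM-homeobox and LIM-only genes, which include the Ldb cofactors that LIM-homeodomain proteins bind, 0 passed in limma and 6 had an unadjusted p under 0.05 (31.3% of all probes did). Their median was 0.021. The smallest adjusted p, 0.0848, belonged to Lmo4, a LIM-only protein that competes for Ldb cofactors, at 0.69, 0.42 and 0.17 in replicates 1, 2 and 3 (0.42 ± 0.26). Ldb1, the cofactor itself, had -0.34 ± 0.20 (adjusted p = 0.0865) and was below 0 on every array.

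The Tcf/Lef family and the Groucho (Tle) corepressors, which Tcf7l1 recruits, gave 0 calls among 8 tested genes in limma, with 4 at an unadjusted p under 0.05 (31.3% of all probes) and a median of -0.084. Lef1, the Tcf/Lef activator of the hair matrix and precortex, was at -0.03, 0.0025 and -0.04 in replicates 1, 2 and 3 (-0.02 ± 0.02, adjusted p = 0.782). Tcf7 had -0.13 ± 0.02 (adjusted p = 0.132) and Tcf7l2, another bulge Tcf, -0.03 ± 0.15 (adjusted p = 0.782). Tle5, a short Groucho-related protein, had the smallest adjusted p of the list, 0.0791, at -0.28 ± 0.15. Tle3 was at -0.30 ± 0.17 (adjusted p = 0.0895), Tle6 at -0.14 ± 0.05 (adjusted p = 0.132) and Tle1 at 0.12 ± 0.04 (adjusted p = 0.169). Tle4 had 0.68 and 0.65 in replicates 1 and 2 but -0.04 in replicate 3 (0.43 ± 0.41, adjusted p = 0.173), and its dimmer probe gave -0.09 ± 0.03.

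Among 12 genes for NFAT factors, calcineurin and their regulators, 1 was higher, 1 was lower and 10 did not pass, where 12.6% of all probes were called. An unadjusted p under 0.05 was found for 7 of them (31.3% of all probes), and the median was 0.0034. Nfatc3, another calcineurin-dependent NFAT factor, was lower in CD34+ cells: it gave -0.74, -0.70 and -0.79 in replicates 1, 2 and 3, or -0.75 ± 0.05 (limma, adjusted p = 0.0104). The ratio was below 0 on 6 of 6 arrays. Fkbp1a, the immunophilin through which tacrolimus inhibits calcineurin, was higher by 0.51 ± 0.09 (adjusted p = 0.0198), a call lost with median centring (0.34, adjusted p = 0.0797). Nfatc2 was at -0.07 ± 0.07 (adjusted p = 0.434), and Nfat5, the calcineurin-independent member that answers to osmotic stress, at -0.0017 ± 0.06 (adjusted p = 0.986). The calcineurin catalytic subunit Ppp3cc had 0.31 ± 0.13 (adjusted p = 0.0563), and the regulatory subunit Ppp3r1 0.02 ± 0.08 (adjusted p = 0.850). Of the calcineurin inhibitors, Rcan1, itself an NFAT target, had -0.18 ± 0.05 (adjusted p = 0.0832), Rcan2 0.0085 ± 0.04 (adjusted p = 0.920) and Chp1 0.11 ± 0.08 (adjusted p = 0.242). The kinases that send NFAT back out of the nucleus, Dyrk1a and Gsk3b, had -0.40 ± 0.21 (adjusted p = 0.0690) and -0.25 ± 0.10 (adjusted p = 0.0708). Ppia, the cyclophilin bound by cyclosporin, had 0.43 ± 0.32 (adjusted p = 0.112).

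Other transcription factors known from follicle stem cells moved in both directions. Of 9 tested, 4 were higher, 1 was lower and 4 did not pass, against 5.6% higher and 6.97% lower of all probes. An unadjusted p under 0.05 in limma was found for 5 of them (31.3% of all probes). The median was 0.24, against 0.0044 over all probes. Nfib, which in mouse bulge cells restrains the neighbouring melanocyte stem cells, was highest at 1.94, 2.17 and 1.56 in replicates 1, 2 and 3 (1.89 ± 0.31, limma, adjusted p = 0.0118). Its ratio lay above that of Tcf7l1 in each replicate. Foxc1, a forkhead factor of stem cell quiescence, was higher by 1.29 ± 0.38 (adjusted p = 0.0216), Gli2, a Hedgehog effector, by 0.57 ± 0.13 (adjusted p = 0.0209) and Runx1 by 0.42 ± 0.14 (adjusted p = 0.0361). The call of Runx1 was lost with scaling between arrays (adjusted p = 0.0617) and on arrays with CD34+ in Cy3 alone (0.29, adjusted p = 0.119). Nfia, of the same family as Nfib, went the other way at -1.14 ± 0.40 (adjusted p = 0.0275) and was lower on 6 of 6 arrays.

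Of 26 tested factors of the epidermis and of the hair matrix, 2 were higher, 7 were lower and 17 did not pass, against 5.6% higher and 6.97% lower of all probes. An unadjusted p under 0.05 in limma was found for 18 of them (31.3% of all probes). Their median was -0.17. The larger falls were those of Klf5, a factor of proliferating basal cells, at -2.18 ± 0.69 (limma, adjusted p = 0.0228), Tfap2c at -1.95 ± 0.56 (adjusted p = 0.0203) and Gata3, a factor of the inner root sheath and epidermis, at -1.75 ± 0.45 (adjusted p = 0.0188). Pou3f1 (-0.94 ± 0.27, adjusted p = 0.0217) and Grhl1 (-0.75 ± 0.32, adjusted p = 0.0392), which acts in the differentiating epidermis, also fell, and the call of Grhl1 was lost with scaling between arrays (adjusted p = 0.0527). The rises were those of Klf4, a factor of the skin barrier, at 0.91 ± 0.23 (adjusted p = 0.0195) and Msx2, a homeobox factor of the hair matrix, at 0.44 ± 0.13 (adjusted p = 0.0301). Klf4 lost its call with median centring (0.48, adjusted p = 0.0608) and Msx2 with scaling (adjusted p = 0.0508). Trp63, which all basal keratinocytes use, was at 0.05 ± 0.28 (adjusted p = 0.825). Of 3 basal keratinocyte markers tested it was the 1 that did not pass. The other markers were higher in CD34+ cells, Col17a1 by 0.67 ± 0.14 (adjusted p = 0.0189) and Itgb4 by 0.38 ± 0.09 (adjusted p = 0.0292).

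Genes tied to the 4 factors by earlier work in mouse skin gave 2 higher, 1 lower and 1 not passing of 4 tested. Of all probes, 5.6% were higher and 6.97% lower. An unadjusted p under 0.05 in limma was found for 3 of the 4 (31.3% of all probes). Lgr5 is also counted among the bulge markers above, so these counts are not separate. Prlr, the prolactin receptor, which acts upstream of Nfatc1 in follicle stem cells, had 1.24, 1.28 and 1.09 in replicates 1, 2 and 3 (1.20 ± 0.10, limma, adjusted p = 0.00691). Cdk4, the G1 kinase whose gene Nfatc1 represses, fell by 0.58 ± 0.25 (adjusted p = 0.0439) and was lower on 6 of 6 arrays. Its call was lost with scaling between arrays (adjusted p = 0.0534) and on arrays with CD34+ in Cy3 alone (-0.43, adjusted p = 0.0880). Lgr5, a receptor of the lower bulge linked to Lhx2, was higher by 3.36, 2.71 and 2.12 (2.73 ± 0.62, adjusted p = 0.0163). Tcf7l2, also linked to Lhx2, is given above, and Sox9 was not analysed here.

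These counts depended on the replicates and the processing. With no background subtraction 17 probes passed, and with the channels unpaired and no replicate block 559 did. Without replicate 1, 0 of 19658 probes passed limma, although 4589 had an unadjusted p under 0.05. Without replicate 2 there were 297 calls and without replicate 3 there were 4234, against 2471 with all 3.

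**Figure D4:**
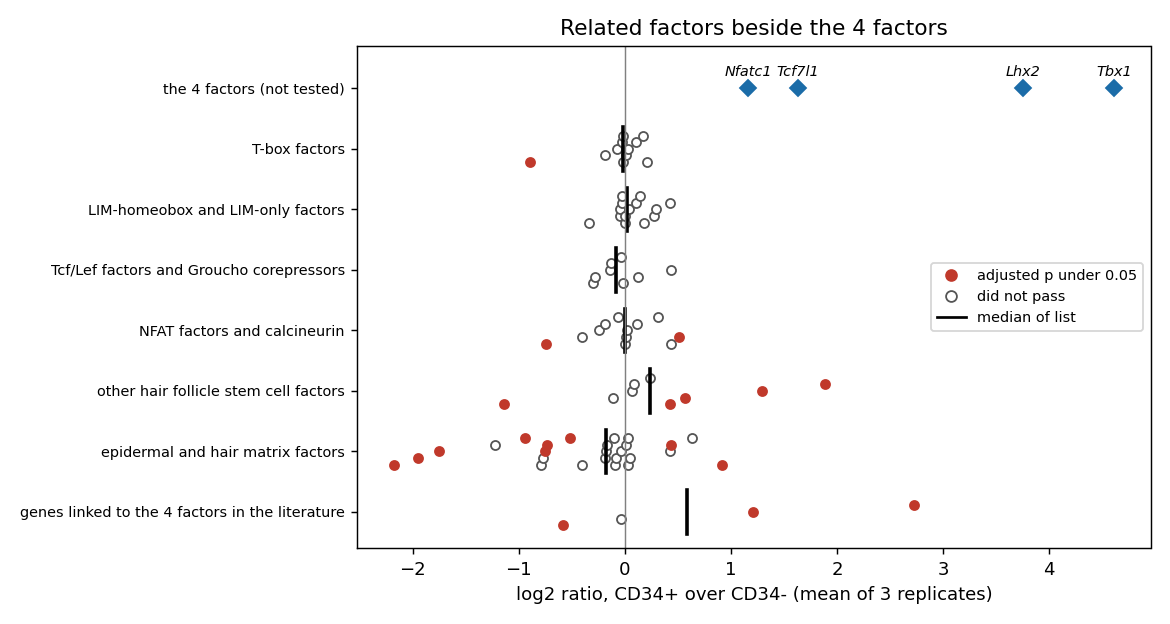
Log2 ratio of CD34+ over CD34- cells (horizontal axis, mean of 3 replicates) for the tested genes of 7 lists, with the 4 factors in the top row. Filled circles passed an adjusted p of 0.05 in limma, open circles did not, and black lines are list medians. Relatives of the 4 factors crowd around 0, with Tbx2 at -0.89 and Nfatc3 at -0.75 to the left, while Nfib at 1.89 lies to the right of Tcf7l1 at 1.63. A ratio near 0 does not tell an unchanged gene from one that was not expressed.

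Genes with the most similar ratios were found by the root mean square difference over the 6 arrays, among 9069 other genes with a symbol. Nearest to Tbx1 was Dkk3, a secreted glycoprotein of the Dickkopf family, with a difference of 0.155 and a ratio of 4.48 ± 0.30, followed by the matricellular gene Ccn2 at a distance of 0.694 and the latent TGF-beta binding protein gene Ltbp2 at 0.804. Nearest to Lhx2 were Calml3, a calmodulin-like gene, at 0.152, Ltbp2 at 0.241 and Postn, which codes for periostin, at 0.305. For Tcf7l1 they were Fkbp10, a folding enzyme for collagen, at 0.119, Col6a1, a collagen VI chain, at 0.129 and Plpp3, a lipid phosphatase, at 0.171. Near to Nfatc1 were Mertk, a receptor tyrosine kinase, at 0.121 and Maged1 at 0.122. Distances measure likeness of ratios only.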

How the data were processed

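Mean and background intensities of each spot were deposited as the Agilent Feature Extraction software read them, per the file headers. Its log10 ratios of Cy5 over Cy3 and its processed signals, with local background removed and dyes balanced by that software, were also deposited. The series' value table held the negative of the deposited log10 ratios (largest difference 0, column medians 0 to 0.00274). Per the labels, 500 ng of total RNA were amplified, and 750 ng of each cRNA were hybridised for 17 hours.

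From the intensities, limma 3.58.1 in R 4.3.3 applied normexp with an offset of 50 and loess within arrays. Control and outlier spots had weight 0. The offset understates changes of dim probes. Ratios were turned to CD34+ over CD34-, and the 2 arrays of a replicate were averaged (n = 3). A probe was tested if well above background in 1 population on both arrays of at least 2 replicates, and 1036 dim and 174 outlier-marked probes of 20868 were left out. Ratios and half-differences between dye orientations were tested with lmFit and eBayes, with Benjamini-Hochberg adjustment over 19658 probes. The script was tested on simulated data. Pairing lies within each array: deviations of the channels of a replicate correlated with r of 0.818, 0.744 and 0.828, read from the same spots, which does not test whether both came from the same mice. The number of replicates limits the precision. The p-values rest on the spread between the 3 replicates, which eBayes moderates towards that of all tested probes.

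The 4 genes and all lists were chosen with earlier results of these data known. Named were the 4 genes, Cd34 and Itga6, up to 5 passing genes per list and direction or else that of the smallest adjusted p, all Tcf/Lef and NFAT genes, the literature-linked genes, and 3 nearest genes each, of which 1 is not reported here. Tbx6, Ldb1, Trp63, Col17a1, Itgb4, Krt15 and the markers of other cells were named after their values were seen.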

Additional observations from a re-analysis of the deposited data

How the results depend on the processing

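The ratios of the 4 factors stayed above 0 wherever they were recomputed, and the filters, the unpaired channels and the random replicate block cannot move them. They came to 3.93 for Lhx2, 2.15 for Tcf7l1 and 1.50 for Nfatc1 with the deposited ratios, and to 3.94, 2.12 and 1.47 with an offset of 0. With no background subtraction they were 3.94 for Tbx1, 3.12 for Lhx2, 0.79 for Tcf7l1 and 0.58 for Nfatc1, and in replicate 3 alone, which has the older software version, they were 4.26, 3.59, 1.17 and 0.92. The limma count over all probes, 2471, was 17 with no background subtraction, 559 with the channels unpaired and no replicate block, 4926 with the replicate block as a random effect over 6 arrays, 4786 with a batch term for the software version, and 0 to 4234 with 1 replicate left out. Replicate 3 alone has the older version, so the batch term takes up that replicate and leaves the spread to replicates 1 and 2. It thus cannot separate version from replicate. The dye count, 1607, was 1 with the deposited ratios (5822 at an unadjusted p under 0.05), 0 with an offset of 0 (5940 unadjusted), 12349 with median centring, 812 with scaling between arrays, and 0 to 2809 with 1 replicate left out. The dye effect of Tbx1 turned to -0.020 after scaling.

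List calls were 0 with no background subtraction for the T-box, NFAT, follicle stem cell, epidermal and literature lists, where only 17 of all probes passed. With the channels unpaired and no replicate block they were 0 for the T-box list, 0 for NFAT, 2 for follicle stem cell and 3 for epidermal factors. With the random replicate block they were 3 for T-box, 3 for LIM, 2 for Tcf/Lef, 4 for NFAT and 16 for epidermal factors, and with the batch term 4 for LIM, 2 for Tcf/Lef, 4 for NFAT and 16 for epidermal factors. On arrays with CD34+ in Cy5 alone they were 2 for T-box, 2 for LIM and 6 for NFAT, and an offset of 0 gave 4 for NFAT. With 1 replicate left out, calls ran from 0 to 1 for T-box, 0 to 2 for LIM, 0 to 2 for Tcf/Lef, 0 to 4 for NFAT, 0 to 5 for follicle stem cell, 0 to 15 for epidermal and 0 to 3 for literature-linked genes. The cause of these shifts was not tested.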
